A study of Homo sapiens with 6 samples.

Results

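MHC class I antigen presentation was followed through 9 genes in DLD-1 cells, an established line of human colorectal cancer: HLA-B, HLA-C, HLA-E, B2M, TAP1, TAP2, TAPBP, PSMB8 and PSMB9. They were chosen by name and matched by Ensembl identifier to rows of a table of 27264 genes, and all 9 were found and passed the filter on low counts. Cells treated with DOX (commonly doxycycline) are labelled mesenchymal, and cells left without DOX are labelled epithelial. Each group held 3 libraries, 1 from each of the clones WT2, WT5 and WT37, and the genotype given for all of them is ZEB2 WT. The title of the study concerns epithelial-to-mesenchymal transition (EMT) mediated by ZEB2, a zinc finger repressor of epithelial genes. The labels give no dose or time for DOX, and every DOX library is from a ZEB2 WT clone, so an effect of DOX itself cannot be told apart from one of ZEB2.

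Class I molecules show peptides from inside the cell to cytotoxic T cells. The proteasome cuts proteins into peptides, the TAP transporter carries these into the endoplasmic reticulum, tapasin holds the empty heavy chain at the transporter, and a heavy chain with beta-2-microglobulin takes the peptide to the cell surface. Interferon raises many of these genes in epithelial cells and brings the inducible proteasome subunits into use.

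Polyadenylated RNA was read from its 3' end with the QuantSeq FWD kit, which gives 1 fragment per transcript end, so levels of different genes could be compared without a correction for length. Reads in genes numbered 5440093 to 7164426 per library, and levels are CPM, scaled to these reads. The 9 genes had 76 to 3351 reads in a library. ZEB2 itself had 20, 9 and 22 reads with DOX in WT2, WT5 and WT37, against 9, 5 and 3 without DOX. Whether reads from an introduced coding sequence would be counted in this row was not tested. Of 10 colon epithelial markers, KRT18 reached 1351 to 2067 CPM with DOX and 2505 to 3311 CPM without DOX, while CDX1 was at 0 reads in every library. The 7 leukocyte markers in the table summed to 5.13 to 11.7 CPM with DOX and 4.596 to 10.05 CPM without DOX, with LYZ at 0 throughout. The 7 fibroblast and endothelial markers summed to 0.160 to 1.83 CPM with DOX and 0.552 to 1.98 CPM without DOX, with COL1A2 and PECAM1 at 0 throughout.

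Of the 9 genes, 8 lie on chromosome 6 and B2M lies on chromosome 15 (44711487 to 44718877, plus strand, GENCODE 29 on GRCh38). HLA-E (30489467 to 30494205, plus strand), HLA-C (31268749 to 31272130, minus strand) and HLA-B (31269491 to 31357188, minus strand) lie in the class I part of the complex. TAP2 (32821833 to 32838780, minus), PSMB8 (32840717 to 32844703, minus), TAP1 (32845209 to 32853978, minus) and PSMB9 (32844136 to 32859585, plus) lie close together, and TAPBP (33299694 to 33314387, minus) lies apart from them. The annotated span of PSMB9 takes in all of TAP1 and runs into PSMB8. The annotated span of HLA-B runs into HLA-C on the same strand, and PSMB8, PSMB9 and TAP1 overlap each other or the antisense gene PSMB8-AS1, and TAP2 overlaps another annotated gene on its own strand. PSMB8-AS1 had 6 to 25 reads in a library. HLA-E, B2M and TAPBP overlap no annotated gene. No source here states if counting took account of strand, and strand cannot separate genes that overlap on the same strand, such as HLA-B and HLA-C. The counts of the overlapping genes are uncertain for both reasons. Class I heavy chains are also highly variable between people and alike among themselves, and reads mapped to several places were not counted. How far this lowers HLA-B, HLA-C and HLA-E was not tested.

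The promoter windows below cover 250 bases before to 50 after the annotated start and come from RefSeq (GRCh38.p14). They are shown for the 3 genes whose libraries with and without DOX did not overlap, B2M, HLA-B and HLA-C. TAP1 and PSMB9, divergent neighbours at these RefSeq starts and known to share a control region, are shown as well. Capitals mark matches on either strand to 1 of 4 motifs. The interferon-stimulated response element core was GAAA, any 2 bases and GAAA again, and the kappa B form was GGG, any 2 bases and TTCCC. The gamma-activated site was TTCNNNGAA, and CACCTG was the E-box type that ZEB factors bind. Where matches overlap, the capitals run together.
B2M, chr15:44711267-44711566, plus strand: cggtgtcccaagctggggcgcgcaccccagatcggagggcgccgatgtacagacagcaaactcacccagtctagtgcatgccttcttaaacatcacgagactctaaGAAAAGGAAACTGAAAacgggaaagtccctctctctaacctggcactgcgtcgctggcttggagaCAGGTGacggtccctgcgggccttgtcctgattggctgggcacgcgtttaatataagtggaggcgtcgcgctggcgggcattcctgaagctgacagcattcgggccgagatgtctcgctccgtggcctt
HLA-B, chr6:31357130-31357429, minus strand: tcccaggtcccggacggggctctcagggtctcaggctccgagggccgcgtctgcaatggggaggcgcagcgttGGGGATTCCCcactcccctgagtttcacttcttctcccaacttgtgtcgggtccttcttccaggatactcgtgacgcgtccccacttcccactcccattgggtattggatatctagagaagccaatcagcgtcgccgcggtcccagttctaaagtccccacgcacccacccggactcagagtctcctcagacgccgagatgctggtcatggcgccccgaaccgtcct
HLA-C, chr6:31272043-31272342, minus strand: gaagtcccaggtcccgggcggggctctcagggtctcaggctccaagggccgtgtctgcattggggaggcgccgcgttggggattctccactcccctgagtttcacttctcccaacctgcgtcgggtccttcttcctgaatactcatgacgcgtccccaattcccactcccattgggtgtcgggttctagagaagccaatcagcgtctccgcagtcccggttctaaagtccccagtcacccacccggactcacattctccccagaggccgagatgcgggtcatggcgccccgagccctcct
TAP1, chr6:32853655-32853954, minus strand: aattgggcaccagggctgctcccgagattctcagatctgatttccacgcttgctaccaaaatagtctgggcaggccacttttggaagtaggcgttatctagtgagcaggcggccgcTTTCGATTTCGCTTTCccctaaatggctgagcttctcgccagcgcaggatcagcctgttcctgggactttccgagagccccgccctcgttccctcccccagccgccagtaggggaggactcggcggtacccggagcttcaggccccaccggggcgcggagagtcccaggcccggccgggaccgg
PSMB9, chr6:32853942-32854241, plus strand: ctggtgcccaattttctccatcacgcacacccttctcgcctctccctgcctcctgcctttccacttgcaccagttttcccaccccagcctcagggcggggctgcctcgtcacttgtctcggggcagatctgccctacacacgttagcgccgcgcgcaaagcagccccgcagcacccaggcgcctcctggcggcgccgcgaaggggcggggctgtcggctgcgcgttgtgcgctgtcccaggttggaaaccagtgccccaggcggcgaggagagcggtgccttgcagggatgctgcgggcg

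The table held 10 windows for 8 of the 9 genes. The response element core was in 5 of them, those of B2M, TAP2, TAPBP and 1 each of TAP1 and PSMB8, against 3.57% of all 35116 promoter windows. In B2M it matched at -144 and -138 from the start, and in TAP1 it matched on the other strand at -134 and -128. The kappa B form was in the HLA-B window alone, at -177, against 2.17% of all windows. The motif TTCNNNGAA was in 2 windows (the other window of TAP1 and the PSMB8 window that also held the response element core), against 7.66% of all windows. The E-box CACCTG was in 2 windows, those of B2M at -79 on the other strand and of PSMB8 at -146, against 20.6% of all windows. The HLA-C and PSMB9 windows held none of the 4 motifs. These matches describe the letters in the windows only.

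The order of levels was led by B2M, the light chain shared by all classical class I molecules, with a mean of 390.3 CPM over the 6 libraries. HLA-C, a classical heavy chain, followed with 314 CPM, then TAP2 with 231 CPM, TAPBP with 208 CPM, HLA-B with 134 CPM, HLA-E with 87.4 CPM, PSMB8 with 70.6 CPM, PSMB9 with 32.8 CPM and TAP1 with 14.1 CPM. The ranges of B2M and HLA-C overlapped, and B2M was above HLA-C in 5 of 6 libraries. The ranges also overlapped between TAP2 and TAPBP, between HLA-B and HLA-E and between HLA-E and PSMB8. The other neighbours in this order did not overlap in any library. TAP1 and TAP2 encode the subunits of 1 transporter, and TAP1 had 8.08, 4.70 and 6.87 reads per 100 TAP2 reads with DOX in WT2, WT5 and WT37, against 6.32, 5.70 and 5.35 without DOX. Exons of PSMB8-AS1 and PSMB9 lie on the opposite strand at or near the 3' end of TAP1, where its reads fall. How far this lowers the TAP1 count was not tested.

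**Figure D1:**
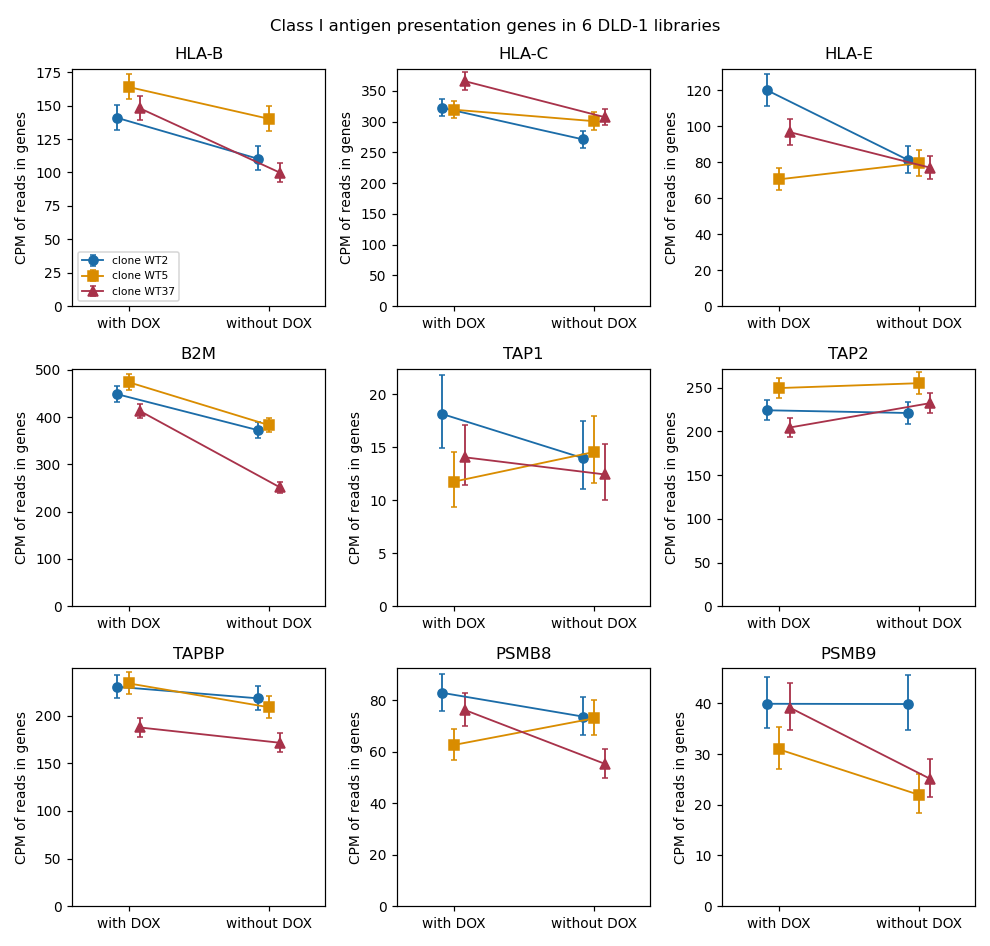
Levels of the 9 class I antigen presentation genes, in CPM of reads in genes, in the libraries with DOX (left) and without DOX (right), with 1 line per clone and bars for the 95% Poisson counting interval. For HLA-B, HLA-C and B2M all 3 libraries with DOX lie above all 3 without DOX, whereas the lines of HLA-E, TAP1, TAP2 and PSMB8 run in both directions.

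The comparison of cells with and without DOX asked whether class I genes differ between cells labelled mesenchymal and cells labelled epithelial. B2M, HLA-B and HLA-C stood higher in every library with DOX than in any without, by 0.16 to 0.39 on the log2 scale with the clone as a block, and 0 of the 9 genes passed the test over all genes. Over all genes, edgeR's quasi-likelihood test without a clone term called 0 of 11732 (0.0%; 709 had an unadjusted p under 0.05), limma-voom called 0 and DESeq2 called 57. With the clone as a block, since libraries of the same clone deviated together, edgeR called 152 genes (1.3%), 77 higher (0.656%) and 75 lower (0.639%), and again 0 of the 9. Groups without overlap and with higher values with DOX were seen in 3 of the 9 genes, against 6.55% of all genes tested, and 5 of the 9 were higher with DOX in all 3 clones, against 21.3%. The 5 included PSMB9, whose WT2 libraries were nearly equal (39.94 CPM with DOX and 39.89 CPM without DOX). Of the 9, 8 had a blocked log2 fold change above 0, against 51.1% of all genes tested, and their median was 0.16, against 0.0061 for all genes tested. In bulk RNA, fewer cells carrying a transcript and less of it per cell cannot be told apart.

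Beta-2-microglobulin had the largest blocked fold change of the 9. B2M stood at 448, 474 and 413 CPM with DOX in WT2, WT5 and WT37, against 372, 383 and 251 CPM without DOX. The groups did not overlap, and the lowest library was WT37 without DOX. The mean was 445 ± 30.5 CPM with DOX and 335.5 ± 73.3 CPM without DOX (SD, n = 3 each). Its log2 fold change was 0.37 ± 0.18 SE without the block (edgeR, adjusted p = 0.869) and 0.39 ± 0.098 SE with it (adjusted p = 0.0824; unadjusted p = 0.00167). An exact two-sided permutation test gave p = 0.1, the smallest that 3 against 3 libraries allow. The WT37 ratio, 0.72 on the log2 scale (95% counting interval 0.63 to 0.80), lay above those of WT5 (0.31, interval 0.23 to 0.38) and WT2 (0.27, interval 0.18 to 0.35). The blocked fold change was 0.27 without WT37 (edgeR, adjusted p = 0.852), 0.48 without WT2 (adjusted p = 0.249) and 0.44 without WT5 (adjusted p = 0.0317).

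Of the heavy chains, HLA-B stood at 141, 164 and 148 CPM with DOX in WT2, WT5 and WT37, against 110.3, 140.1 and 99.8 CPM without DOX. HLA-B presents peptides to T cells, and its groups did not overlap, though WT2 with DOX (140.8) and WT5 without DOX (140.1) nearly met. Its blocked log2 fold change was 0.35 ± 0.096 SE (edgeR, adjusted p = 0.128), and leaving out a clone gave 0.41 without WT5 (adjusted p = 0.0282), 0.36 without WT2 (adjusted p = 0.488) and 0.27 without WT37 (adjusted p = 0.898). The ratio within clones was 0.35, 0.23 and 0.57 in WT2, WT5 and WT37, each with a counting interval above 0.

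HLA-C, which also serves as a ligand of natural killer cell receptors, stood at 322, 319 and 366 CPM with DOX in WT2, WT5 and WT37, against 271, 301 and 307 CPM without DOX. Its groups did not overlap either, and its blocked log2 fold change was 0.16 ± 0.086 SE (edgeR, adjusted p = 0.467). The counting interval in WT5 reached -0.003 and so included 0.

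HLA-E, a heavy chain that shows signal peptides of other class I chains to natural killer cells, stood at 119.8, 70.4 and 96.6 CPM with DOX in WT2, WT5 and WT37, against 81.3, 79.5 and 76.9 CPM without DOX. The libraries without DOX were close together (79.2 ± 2.18 CPM, SD, n = 3), and those with DOX lay on both sides of them (95.6 ± 24.7 CPM). The WT2 and WT37 ratios were 0.56 and 0.33 on the log2 scale and the WT5 ratio was -0.17, and the blocked log2 fold change was 0.20 ± 0.13 SE (edgeR, adjusted p = 0.537).

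**Figure D2:**
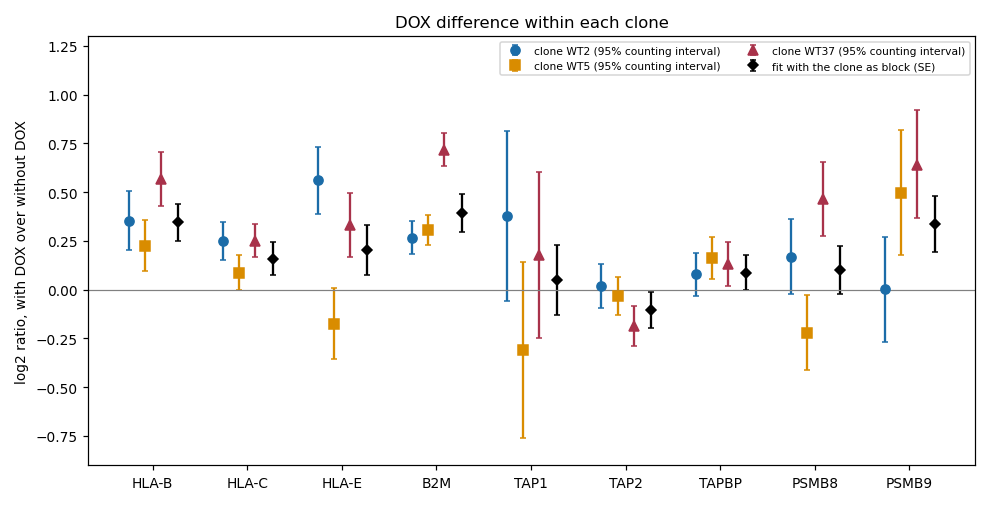
Log2 ratio of the level with DOX over that without DOX in each clone, with 95% counting intervals, and the fitted log2 fold change with the clone as block and its SE, for the 9 genes. The counting intervals of B2M and HLA-B lie above 0 in all 3 clones, and the ratios of HLA-E, TAP1 and PSMB8 lie below 0 in WT5 alone.

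The genes of peptide transport and loading differed less. TAP1, a transporter subunit, stood at 18.1, 11.7 and 14.0 CPM with DOX in WT2, WT5 and WT37, against 14.0, 14.5 and 12.4 CPM without DOX. These rest on 76 to 113 reads, the counting interval of the ratio included 0 in all 3 clones, and the blocked log2 fold change was 0.048 ± 0.18 SE (edgeR, adjusted p = 0.942). TAP2, its partner, stood at 224, 249.6 and 204.5 CPM with DOX, against 221, 255 and 232 CPM without DOX. It was the 1 gene of the 9 with a fold change below 0 (-0.10 ± 0.092 SE, blocked edgeR fit, adjusted p = 0.686), and WT37 was the 1 clone whose counting interval excluded 0 (-0.29 to -0.082).

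TAPBP, which encodes tapasin, stood at 230.3, 234 and 188 CPM with DOX in WT2, WT5 and WT37, against 218, 209 and 171.5 CPM without DOX. Each clone had more with DOX, by 0.078, 0.16 and 0.13 on the log2 scale, but the groups overlapped because the clones differed by more than that. Its blocked log2 fold change was 0.087 ± 0.089 SE (edgeR, adjusted p = 0.73). Of 9 other loading and trimming genes tested (10 listed), such as chaperones of the endoplasmic reticulum and aminopeptidases, 0 were called in either direction, and their blocked log2 fold changes ran between -0.075 and 0.36 with a median of 0.10.

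The inducible proteasome subunits PSMB8 and PSMB9 replace the standard catalytic subunits PSMB5 and PSMB6. PSMB8 stood at 82.9, 62.6 and 76.3 CPM with DOX in WT2, WT5 and WT37, against 73.7, 73.0 and 55.3 CPM without DOX. PSMB9 stood at 39.9, 31.0 and 39.2 CPM with DOX, against 39.9, 21.97 and 25.1 CPM without DOX. PSMB9 was nearly equal in both WT2 libraries and higher with DOX in WT5 and WT37, where the log2 ratio was 0.495 (counting interval 0.18 to 0.82) and 0.64 (0.37 to 0.92). The blocked log2 fold change was 0.34 ± 0.14 SE for PSMB9 (edgeR, adjusted p = 0.348) and 0.10 ± 0.12 SE for PSMB8 (edgeR, adjusted p = 0.783).

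PSMB5 and PSMB6 were lower in every library with DOX than in any without, a pattern seen in 4.56% of all genes tested. PSMB5 stood at 417, 421 and 442 CPM with DOX in WT2, WT5 and WT37, against 463, 452 and 470.0 CPM without DOX. PSMB6 stood at 242, 231 and 222 CPM with DOX, against 252, 247 and 256 CPM without DOX. PSMB5 averaged 427 ± 13.1 CPM with DOX and 462 ± 9.27 CPM without DOX (SD, n = 3 each), and PSMB6 averaged 231.5 ± 10.2 CPM with DOX and 251.5 ± 4.21 CPM without DOX. The exact two-sided permutation test gave p = 0.1 for each, the smallest possible with n = 3 each. Neither passed the blocked test (edgeR, log2 fold change -0.15 ± 0.084 SE with adjusted p = 0.483 for PSMB5, and -0.16 ± 0.090 SE with adjusted p = 0.488 for PSMB6). PSMB7, the third standard catalytic subunit, was at -0.10 ± 0.09 SE in the same fit. Over the 14 tested core subunits of the standard proteasome 0 were called, 1 had a blocked fold change above 0, and the median was -0.12.

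For every 100 PSMB6 reads there were 16.5, 13.4 and 17.7 PSMB9 reads with DOX in WT2, WT5 and WT37, against 15.9, 8.88 and 9.83 without DOX. The mean was 15.9 ± 2.20 with DOX and 11.5 ± 3.78 without DOX (SD, n = 3 each; exact two-sided permutation test, p = 0.2). For every 100 PSMB5 reads there were 19.9, 14.9 and 17.3 PSMB8 reads with DOX, against 15.9, 16.2 and 11.8 without DOX (exact two-sided permutation test, n = 3 each, p = 0.4). For both pairs the groups overlapped, and the lower PSMB5 and PSMB6 levels with DOX enter these ratios.

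**Figure D3:**
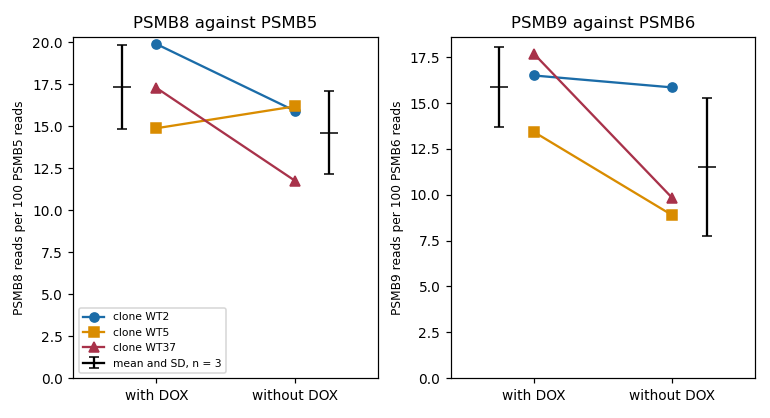
Reads of PSMB8 per 100 PSMB5 and of PSMB9 per 100 PSMB6, in the libraries with DOX (left) and without DOX (right), with 1 line per clone and the mean with its SD (n = 3) beside each group. The groups overlap for both pairs, and PSMB9 per 100 PSMB6 is higher with DOX in all 3 clones.

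PSMB10, the third inducible catalytic subunit, had 3, 0 and 0 reads with DOX in WT2, WT5 and WT37 and 0, 2 and 0 reads without DOX. At its 3' end PSMB10 shares exons with a second annotated gene on the same strand (ENSG00000261884, with 1 to 11 reads in a library). The deposited table has a row of reads that fit several genes, so these counts may not measure its level. Of the 5 proteasome activator and assembly genes tested (6 listed with PSMB10), 0 were called, and their blocked log2 fold changes ran between -0.19 and 0.11.

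Of the 9 further heavy chain and class I-like genes listed, 6 were tested, 0 were called with DOX, and their median blocked log2 fold change was 0.16. Among 17 listed regulators of class I transcription, 15 were tested and 0 were called, with a median of 0.037. NLRC5, the transactivator of class I genes, had 30 to 59 reads in a library and a blocked log2 fold change of 0.30 ± 0.22 SE (edgeR, adjusted p = 0.613). IRF1, an interferon-induced transcription factor, was at -0.042 ± 0.14 SE (edgeR, adjusted p = 0.931).

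Interferon and TNF receptors with their kinases and inhibitors were called in 0 of 9 tested genes (10 listed), with 8 fold changes above 0 and a blocked median of 0.22. Of 23 other interferon-responsive genes, 13 were tested, 2 rose and 0 fell in the blocked fit, and the median was 0.15. IFI6, an interferon-induced mitochondrial protein, rose by 0.82 ± 0.15 SE (edgeR, adjusted p = 0.0283). IFIT1, which binds viral RNA, rose by 1.72 ± 0.38 SE on few reads (edgeR, adjusted p = 0.0487). It had 13, 20 and 45 reads with DOX in WT2, WT5 and WT37, against 3, 4 and 15 without DOX. The IFIT1 groups overlapped, with 2.085 CPM in WT2 with DOX and 2.094 CPM in WT37 without DOX. CXCL10, an interferon-induced chemokine, had 0 reads in all 6 libraries. Without the block 0 genes of these lists were called. In the same fit, 1 of 7 tested colon epithelial markers rose and 2 fell, with a median of -0.65. EPCAM fell by 0.73 on the log2 scale (SE 0.12, edgeR, adjusted p = 0.023), KRT18 fell by 0.69 (SE 0.11, edgeR, adjusted p = 0.0135) and CDX2 rose by 0.42 ± 0.089 SE (edgeR, adjusted p = 0.0464).

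**Figure D4:**
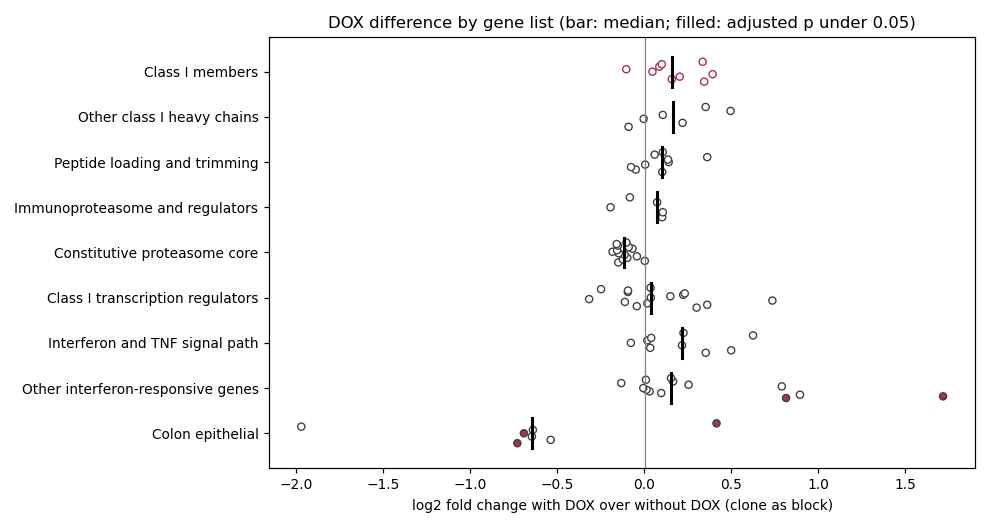
Fitted log2 fold changes with DOX over without DOX (clone as block) for the tested genes of each list, with the median of the list as a bar and genes past an adjusted p of 0.05 filled. The 9 class I genes lie between -0.10 and 0.39 with 0 filled, the standard proteasome core lies between -0.18 and 0.0038, and 2 interferon-responsive genes and 3 colon markers are filled.

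Genes of class II presentation, which epithelial cells carry mainly after interferon, were near the floor. The 11 listed genes summed to 9.14, 14.0 and 5.34 CPM with DOX in WT2, WT5 and WT37, against 4.41, 8.43 and 11.3 CPM without DOX, with HLA-DQA1 and HLA-DQB1 at 0 reads throughout. The test took in 3 of them, and 0 were called.

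The comparison of clones asked how far WT2, WT5 and WT37 differ in the same genes, with DOX as a covariate and 2 libraries per clone. The clone term passed in 802 of 11732 genes (6.84%; edgeR) and in 2 of the 9, B2M and TAPBP. Set pair by pair, WT37 was lower than WT2 in these 2 genes (2.68% of all genes) and lower than WT5 in B2M alone (2.74% of all genes). The fit takes DOX to act alike in all clones, although the ratios above differ between them. It also rescales the libraries (TMM), which the CPM means do not, so its log2 differences need not equal the ratios of these means. HLA-C, for example, had means of 336 CPM in WT37 and 297 CPM in WT2 but a fitted log2 difference of 0.061. WT37 had the lowest mean level for 5 of the 9 genes, against 25.6% of all genes tested. Between WT37 and WT2 the median log2 difference of the 9 genes was -0.38 and 8 were below 0, where all genes had a median of 0.0074 and 49.1% below 0. Both WT37 libraries also had the smallest shares of reads mapped to several places (12% with DOX and 11.8% without, against 14.6% to 16.0% in the other libraries). The part of this in the clone differences was not tested.

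B2M had a mean level of 332 CPM in WT37, 428 CPM in WT5 and 410.4 CPM in WT2 (edgeR, clone term, adjusted p = 0.0464). The WT37 level was lower by 0.46 ± 0.12 SE on the log2 scale than that of WT2 (edgeR, adjusted p = 0.0456) and by 0.48 ± 0.12 SE than that of WT5 (adjusted p = 0.0384), and this came mostly from 1 library, WT37 without DOX at 251 CPM. Without that library the difference from WT2 was -0.28 and the clone term had an adjusted p of 0.549. Without WT2 the adjusted p was 0.0685, without the WT2 library without DOX 0.0659 and without the WT37 library with DOX 0.0926. Without WT37, WT5 and WT2 alone gave 0.986.

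TAPBP had a mean level of 180 CPM in WT37, 221 CPM in WT5 and 224 CPM in WT2 (edgeR, clone term, adjusted p = 0.0494). Both WT37 libraries lay below all 4 others, and WT37 was lower than WT2 by 0.44 ± 0.11 SE on the log2 scale (edgeR, adjusted p = 0.0354) and lower than WT5 by 0.38 ± 0.11 SE (adjusted p = 0.0597). The call was lost without WT2 (adjusted p = 0.131), without its library with DOX (0.125) or without DOX (0.149), without WT37 (0.936) and without its library with DOX (0.453) or without DOX (0.275). The size of the difference from WT2 stayed between -0.48 and -0.41 when single libraries were left out.

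The remaining 7 genes did not pass the clone test in edgeR. PSMB9 had mean levels of 32.2 CPM in WT37, 26.5 CPM in WT5 and 39.9 CPM in WT2 (adjusted p = 0.0814), so that WT5 was the lowest clone. HLA-E had mean levels of 86.8 CPM in WT37, 74.9 CPM in WT5 and 100.5 CPM in WT2 (adjusted p = 0.171). HLA-B was highest in WT5, with 152 CPM against 124 CPM in WT37 and 126 CPM in WT2 (adjusted p = 0.115). HLA-C was the most even of the 9, with log2 differences between clones of 0.061 ± 0.11 SE, 0.035 ± 0.11 SE and 0.027 ± 0.11 SE (adjusted p = 0.914). Adjusted p was 0.247 for TAP2, 0.248 for PSMB8 and 0.406 for TAP1.

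**Figure D5:**
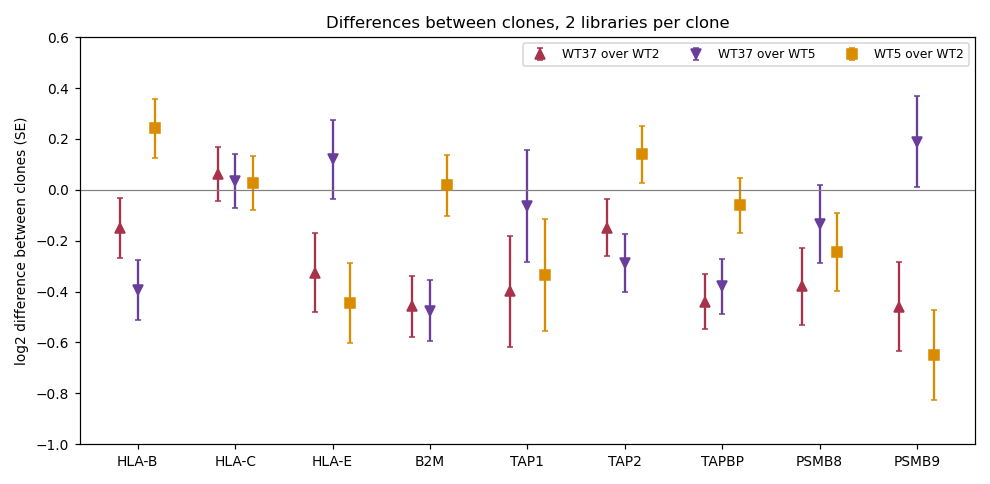
Log2 differences between clones in the fit with DOX as covariate, with their SE, for the 9 genes. B2M and TAPBP are lower in WT37 than in either other clone, HLA-C is near 0 in all 3 pairs, and PSMB9 and HLA-E are lowest in WT5.

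Among related genes, MICA, a stress-induced ligand of the receptor NKG2D, also passed the clone test (edgeR, adjusted p = 0.00589). MICA had 20.7 CPM in WT37, 39.4 CPM in WT5 and 39.5 CPM in WT2, with log2 differences of -1.01 ± 0.17 SE between WT37 and WT5 and -1.05 ± 0.17 SE between WT37 and WT2. EPCAM (edgeR, adjusted p = 0.031) and KRT18 (adjusted p = 0.0343) had their lowest mean level in WT37, with 556 CPM and 1928 CPM there. For KRT18, WT37 and WT5 were close without DOX (2505 and 2571 CPM) and further apart with DOX (1351 and 1958 CPM).

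The 5 tested genes whose pattern was most like the mean standardised profile of the 9 genes over the 6 libraries were TMA16 (Pearson r = 0.990), SEMA5A (0.985), NFIC (0.978), NT5E (0.972) and SEC22C (0.97). The points share clones and libraries, and with 6 of them such values are a description. NT5E, the cell surface enzyme CD73, stood at 143, 102 and 115 CPM with DOX in WT2, WT5 and WT37, against 104, 97.1 and 61.1 CPM without DOX. NFIC, a transcription factor, stood at 141, 109.6 and 98.6 CPM with DOX, against 88.6, 98.3 and 65.2 CPM without DOX. In both of these genes WT37 without DOX was the lowest library and WT2 with DOX the highest, as in the summed CPM of the 9 genes (1232 and 1627 CPM). Both were picked for their likeness to the 9 genes, so this match follows from the choice.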

How the data were processed

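Messenger RNA was measured in 6 DLD-1 libraries (3 clones, each with and without DOX). QuantSeq 3' FWD libraries were made from column-purified RNA, per the labels' protocols. The deposited values are raw read counts per Ensembl gene with no normalization recorded; the submitters' processing notes name GRCh38 and DESeq2. No source used here names the aligner, the counter or its annotation. The table held 27264 gene rows and 4 rows of unassigned reads, which were left out of library sizes and tests: 4.29% to 5.25% unmapped, 11.8% to 16.0% mapped to several places, 8.72% to 11.7% outside features and 6.86% to 7.40% ambiguous.

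Gene symbols were looked up by Ensembl identifier (22056 found) and GENCODE 29 (4858 more). Tests used R 4.3.3 with edgeR 4.0.16 (TMM scaling, filterByExpr, robust quasi-likelihood test), limma 3.58.1 and DESeq2 1.42.0, fitted on all genes with Benjamini-Hochberg adjustment and a threshold of 0.05, and were tested on simulated data. Standard errors are the fold change over the square root of F, which is approximate. Poisson and binomial intervals at 95% cover counting error only. CPM and the ratios within clones used reads in genes with no TMM scaling. A pseudocount of 1 entered only permutation tests, list medians within clones and correlations. The labels put each clone in both groups, and deviations from the group mean correlated within WT37 (r = 0.53), WT5 (0.284) and WT2 (0.489) across genes, so the clones pair the libraries and blocked values are printed beside the unblocked fit. Blocking lowered edgeR's biological coefficient of variation to 10.9%, against 17.9% unblocked. Within a group, pairs of libraries differed by 6.11 to 18.3 times the chi-square expected from sampling noise.

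The 9 genes, the gene lists and the 4 motifs were chosen with earlier results of these data known. All 9 genes are named; of the other lists, up to 4 genes each past a threshold, and PSMB5, PSMB6, PSMB7, PSMB10, NLRC5, IRF1 and ZEB2 by role, and the 5 genes with the highest Pearson r to the mean standardised profile of the 9. Some genes that this rule names are not reported here. Alternatives tried were the replicate block, DESeq2 size factors, no filter, a filter of 50 reads in 3 libraries, DESeq2, limma-voom, and leaving out each clone or library.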

Additional observations from a re-analysis of the deposited data

Results flagged for a closer look

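In 4 of the 9 genes the direction of the DOX ratio was not the same in the 3 clones, and each clone had 1 library per condition, so these differences were not tested. The log2 ratio of HLA-E was 0.56 in WT2 and 0.33 in WT37, with counting intervals above 0, and -0.17 in WT5 (interval -0.36 to 0.0095). PSMB8 had ratios of 0.17 in WT2 and 0.46 in WT37 (interval 0.27 to 0.65) and of -0.22 in WT5 (interval -0.41 to -0.028), so that WT37 and WT5 differed by more than counting error. TAP1 had ratios of 0.38 in WT2, -0.31 in WT5 and 0.18 in WT37, all with intervals that include 0. TAP2 had ratios of 0.02 in WT2, -0.032 in WT5 and -0.18 in WT37. In 3 of these genes WT5 was the 1 clone below 0. A smaller change in WT5 was also seen outside the class I genes. The 7 tested colon epithelial markers had a median log2 ratio of -0.18 for WT5, while WT2 reached -0.71 and WT37 reached -0.89. Among libraries with DOX, ZEB2 had its fewest reads in WT5 (9, against 20 and 22). IFI6 went the other way, with its largest ratio (1.17) in WT5. Whether WT5 responded less to DOX across genes was not tested.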

How the results depend on the processing

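For all values below, the cause was not tested. The DOX test called 0 genes unblocked and 152 once the replicate block was added. Unblocked, no filter called 206, DESeq2 57, and leaving out a clone or library 0 to 35 (4 without WT5, 35 when its DOX library alone was dropped). Under the block, DESeq2 size factors called 155, DESeq2 133, limma-voom 185, and leaving out a clone 5 to 736 (8 without WT2, 736 without WT5, 5 without WT37). The block changed the call of none of the 9 genes, and in the edgeR, DESeq2 and limma-voom fits of all 6 libraries 0 of them passed for DOX. With the block and without WT5, HLA-B (0.41, adjusted p = 0.0282) and B2M (0.44, adjusted p = 0.0317) passed, and without WT2 or WT37 neither did. The number of the 9 with a fold change above 0 was 8, and 5 to 9 when a clone or library was left out (5 without the WT37 library without DOX). The fold change reversed only in such fits: TAP1 ranged from -0.15 to 0.24 (blocked -0.099 to 0.22), TAP2 from -0.19 to 0.012, TAPBP from -0.029 to 0.22 and PSMB8 from -0.049 to 0.25 (blocked -0.041 to 0.26). B2M ranged from 0.18 to 0.48, HLA-B from 0.21 to 0.48, HLA-C from 0.13 to 0.195, HLA-E from 0.0024 to 0.40 and PSMB9 from 0.13 to 0.63.

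The clone test called 802 genes, 1783 with no filter, 441 with DESeq2 and 129 to 2285 when a clone or library was left out (129 without WT37, 406 without WT2, 1782 without WT5, 265 after dropping WT37 with DOX and 463 after dropping WT37 without DOX, 1888 after dropping WT5 with DOX and 2285 after dropping WT5 without DOX). The stricter filter gave an adjusted p of 0.0629 for B2M and 0.0589 for TAPBP, DESeq2 gave 0.0949 and limma-voom 0.0544 for TAPBP, and no filter gave 0.0411 for HLA-E and 0.00919 for PSMB9. Leaving out a clone or library gave an adjusted p of 0.00819 to 0.986 for B2M, 0.00798 to 0.936 for TAPBP, 0.0393 to 0.636 for HLA-B, 0.0162 to 0.825 for HLA-E, 0.039 to 0.735 for PSMB8 and 0.0282 to 0.611 for PSMB9. Calls were gained by dropping the WT5 library with DOX (HLA-B, PSMB8 and PSMB9), the WT5 library without DOX (HLA-E and PSMB8), WT5 as a whole (PSMB8) and the WT2 library with DOX (PSMB9). The log2 difference between WT5 and WT2 for B2M ranged from -0.10 to 0.14, and between WT37 and WT5 for HLA-E from -0.16 to 0.40. At 76 to 113 reads, TAP1 had the widest counting intervals of the 9 genes.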

Other observations

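Reads of class II genes, picked out after their values were seen, overlapped between the DOX groups. HLA-DRA had 5, 16 and 0 reads with DOX in WT2, WT5 and WT37, against 0, 11 and 12 without DOX. CD74, the class II invariant chain, had 7, 18 and 4 reads with DOX, against 0, 10 and 25 without DOX. Both genes were at 0 in WT2 without DOX.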
